A study of Danio rerio with 9 samples.

Results

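Both zebrafish lines with altered autophagy control were compared, as an average, with wild type. The genes described were those in which the 6 line libraries were either all above or all below the 3 WT libraries. Counted were the 18884 genes with a name and a chromosome entry, which can be a scaffold, that passed the filter on low counts. Of these, 785 (4.16%) met this rule, 343 of them higher (1.82% of the genes tested) and 442 of them lower (2.34%) in the lines. A gene whose 9 libraries were ranked at random would meet it with a probability of 0.0238, both directions together. Many of the 785 genes could therefore meet it by rank alone. Each line counted equally in the average.

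RNA from adult ventricles was sequenced in 9 libraries, 3 per genotype, and every library was made from 5 pooled ventricles of fish labelled as 6 months old. The first line, *mtor* xu015/+, is heterozygous for the xu015 allele of *mtor* in all its cells. The second line, Tg(cmlc2:tfeb), expresses *tfeb* from the *cmlc2* promoter, which is active in cardiomyocytes and not in the other cells of the ventricle. The WT fish were described as siblings, without the line they came from, and the column names of the WT libraries carry a tag of 9 months. Age, clutch and anything else that set the WT libraries apart cannot be told apart from a shift shared by both lines.

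The mTOR kinase senses nutrients and growth factors and holds autophagy back, in part by phosphorylating TFEB, which keeps this transcription factor out of the nucleus. Once in the nucleus, TFEB activates genes of lysosomes and autophagy. In fat-storing cells the same pathways also bear on lipid droplets, the organelles that hold neutral fat under a coat of perilipins and related proteins.

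Levels are given as CPM, counts scaled to a library total common to all libraries, of the deposited estimated counts after TMM normalization. These counts are scaled from transcript abundances, so that levels can be compared between genes. Totals were 35439974 to 45273695 per library, and at these totals counting error weighs on the genes of lowest level alone. *tfeb* itself was at 548, 655 and 218 CPM in the Tg(cmlc2:tfeb) libraries, against 43.0, 52.7 and 39.3 CPM in the *mtor* xu015/+ libraries and 53.8, 41.0 and 42.3 CPM in WT. *mtor* was at 153, 181 and 134 CPM in the libraries labelled *mtor* xu015/+, 47.1, 47.2 and 46.4 CPM in Tg(cmlc2:tfeb), and 164, 98.4 and 62.5 CPM in WT. The level of *mtor* therefore did not check the label of the mutant libraries. Ventricular cardiomyocyte markers summed to between 103000 and 116000 CPM in *mtor* xu015/+, 69600 and 83700 CPM in Tg(cmlc2:tfeb), and 104000 and 112000 CPM in WT, and 0 of 10 tested markers was called between the lines and WT by edgeR (3 lower at an unadjusted p under 0.05, 0 called by DESeq2 or limma-voom). In bulk tissue, fewer cells of a type and less RNA per cell cannot be told apart.

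A gene was called when the edgeR quasi-likelihood test gave an adjusted p under 0.05 and the average of the lines differed from WT by at least 1.5-fold. This gave 200 genes called higher (1.06%) and 282 called lower (1.49%), of which 153 and 220 had overlapping libraries. limma-voom called 106 higher and 287 lower. At an unadjusted p under 0.05, edgeR had 8.64% of the genes higher and 10.5% lower, the background for the counts at that threshold given with the lists. The genes both called and without overlap were 47 higher (0.249%) and 62 lower (0.328%), 109 in all. Of these, 56 were also shifted by at least 1.5-fold in each line taken alone, 22 higher and 34 lower. These are the genes that the average and the separate lines placed on the same side by size as well as by rank.

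The median log2 fold change of the genes without overlap was 0.41 for those higher and -0.39 for those lower in the lines, against -0.02 over all named and placed genes. These medians describe what the rule chose. Taken by line, the higher genes had a median of 0.30 in *mtor* xu015/+ and 0.51 in Tg(cmlc2:tfeb), and the lower genes -0.30 and -0.46. The gap between the nearest line library and the nearest WT library was small for most genes, with a median of 0.06 log2 units in either direction. Among called genes, *p2ry1*, *CR956623.2* and *oat* lay just inside the rule, with gaps of 0.00052, 0.0053 and 0.0085 log2 units, and *upk1a*, *pltp* and *mindy4b* lay just outside, with overlaps of -0.0023, -0.0030 and -0.0047. Of the 785 genes, 778 were protein coding, and their share among the genes tested ran from 2.71% on chromosome 1 to 6.46% on chromosome 15.

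How far the average can carry a statement depended on the fit. With the lines fitted as a single group of 6, so that the difference between the lines counted as spread, edgeR called 0 genes, the smallest adjusted p was 0.157, and 1441 genes had an unadjusted p under 0.05. Scaling by total count alone turned the balance of the genes without overlap to 444 higher and 312 lower, against 343 and 442 with TMM.

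The lines were compared directly in the same fit, a contrast in which WT has no part. Over all named and placed genes, 1452 (7.69%) were called higher and 1412 (7.48%) lower in Tg(cmlc2:tfeb) than in *mtor* xu015/+, 15.2% together. Among the 785 genes without overlap the share was 10.4% (82 genes). Of the 343 higher genes, 34 were further from WT in Tg(cmlc2:tfeb) and 1 was further in *mtor* xu015/+. Of the 442 lower genes, 47 were further from WT in Tg(cmlc2:tfeb) and 0 were further in *mtor* xu015/+ by edgeR (3 at an unadjusted p under 0.05, 0 by DESeq2 and 0 by limma-voom). Where the lines were called different, these departures were mostly steeper in the transgenic libraries. The 785 genes were chosen by the values of these same line libraries. A gene with the lines on opposite sides of WT cannot meet the rule, so this share and split describe what the rule chose. Over all named and placed genes, edgeR called 2592 in Tg(cmlc2:tfeb) and 1 in *mtor* xu015/+ against WT. Of the 109 called genes without overlap, 64 differed between the lines and 45 were not called different.

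**Figure D1:**
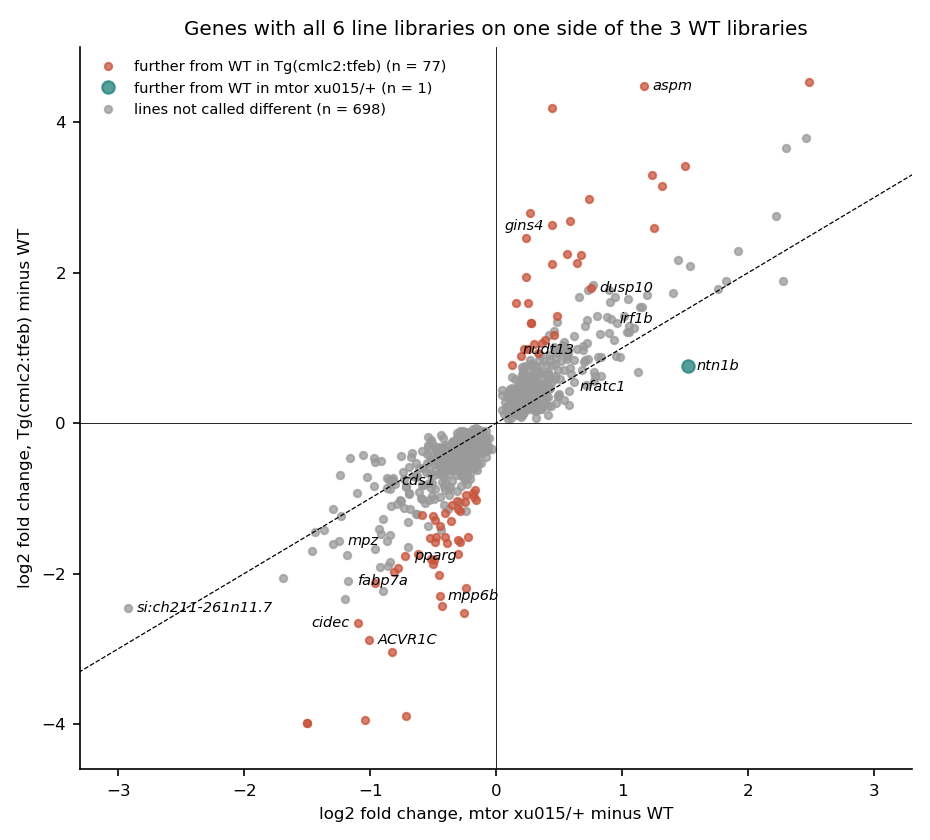
Log2 fold change against WT of the genes without overlap, with *mtor* xu015/+ on the horizontal axis, Tg(cmlc2:tfeb) on the vertical axis and a dashed line where both are equal. Each of the 776 points is a gene (9 genes with at most 3 counts in every library of a group are left out), and both axes share the same 3 WT libraries, so the 2 empty quadrants and part of the slope follow from the rule. The 77 red points are called further from WT in Tg(cmlc2:tfeb), and *ntn1b* is the 1 green point, further in *mtor* xu015/+.

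A first set of called genes had like log2 fold changes in both lines. Their adjusted p belongs to the average and does not show a shift in the mutant alone. With each line tested against WT in the same fit, edgeR called 1 gene in *mtor* xu015/+, *ntn1b*, and 2592 in Tg(cmlc2:tfeb). For *cds1* the edgeR adjusted p in *mtor* xu015/+ alone was 0.183. *cds1*, which encodes the synthase of CDP-diacylglycerol, a precursor of phosphatidylinositol and cardiolipin, lies on chromosome 5 from 40009958 to 40040488. It was at 2.27, 2.05 and 2.33 CPM in *mtor* xu015/+ and 2.27, 2.57 and 2.03 CPM in Tg(cmlc2:tfeb), against 3.92, 3.81 and 4.03 CPM in WT. The 6 line libraries covered the same range in both genotypes and left a wide gap to WT. *cds1* fell, with a log2 fold change of -0.80 (standard error 0.12, edgeR adjusted p = 0.00791), and the lines differed by 0.05 (95% interval -0.26 to 0.36).

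*plxna4*, a subunit of semaphorin receptors on chromosome 4 from 15217929 to 15420452, was at 5.48, 5.25 and 5.77 CPM in *mtor* xu015/+ and 5.09, 4.62 and 6.08 CPM in Tg(cmlc2:tfeb), against 9.24, 7.91 and 8.43 CPM in WT. Again both lines shared a range below WT. Its log2 fold change was -0.67 (standard error 0.10, edgeR adjusted p = 0.0101), with a difference between the lines of -0.07 (95% interval -0.34 to 0.21). *hhipl1*, named for its resemblance to the hedgehog-interacting protein, was also lower. It was at 27.6, 37.8 and 26.2 CPM in *mtor* xu015/+ and 30.6, 25.3 and 29.0 CPM in Tg(cmlc2:tfeb), against 60.6, 41.2 and 49.1 CPM in WT. *mtor* xu015/+ replicate 2 came nearest to WT, and the log2 fold change was -0.77 (standard error 0.15, edgeR adjusted p = 0.0207).

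*tagapa*, a GTPase-activating protein named for T cell activation, was at 3.53, 4.86 and 5.38 CPM in *mtor* xu015/+ and 4.58, 4.19 and 4.61 CPM in Tg(cmlc2:tfeb), against 6.41, 7.57 and 7.89 CPM in WT. All line libraries were below all WT libraries by a clear step (log2 fold change -0.69, edgeR adjusted p = 0.0235). Other genes, chosen after their values were seen, had the same form. *bcl6aa*, of a family of transcriptional repressors, was lower by -0.85 in *mtor* xu015/+ and -0.76 in Tg(cmlc2:tfeb), *acot14*, an acyl-CoA thioesterase, by -0.97 and -0.83, and *C14H4orf47* by -0.74 and -0.74, all on the log2 scale against the same WT libraries. *oat*, the ornithine aminotransferase of mitochondria, was at -0.61 and -0.91, with *mtor* xu015/+ replicate 2 (16.3 CPM) just below WT replicate 3 (16.4 CPM).

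A larger decrease of this form was in a pair of adjacent clone-named genes on chromosome 8, whose functions are not annotated in the table. *si:ch211-261n11.7* (22477922 to 22489985) was at 0.767, 0.806 and 1.23 CPM in *mtor* xu015/+ and 1.29, 0.583 and 2.06 CPM in Tg(cmlc2:tfeb), against 6.51, 5.18 and 9.68 CPM in WT. The highest line library was well below the lowest WT library. The log2 fold change was -2.69 (standard error 0.33, edgeR adjusted p = 0.00394) and the difference between the lines 0.46 (95% interval -0.51 to 1.43). Its neighbour *si:ch211-261n11.8*, 84 bp away and added after its values were seen, had a log2 fold change of -1.88 (edgeR adjusted p = 0.00663). How reads were divided between such neighbours is not given in the sources used here.

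Genes higher by a like amount in both lines were fewer. *nudt13*, a member of the Nudix hydrolase family on chromosome 12 from 9519250 to 9538578, was at 4.85, 5.39 and 5.87 CPM in *mtor* xu015/+ and 6.00, 7.06 and 6.58 CPM in Tg(cmlc2:tfeb), against 3.22, 3.02 and 3.78 CPM in WT. All Tg(cmlc2:tfeb) libraries lay above all *mtor* xu015/+ libraries, and the lines differed by 0.29 (95% interval 0.0044 to 0.57). The interval lay wholly on the side of Tg(cmlc2:tfeb), but the difference was not called (edgeR adjusted p = 0.128). *nudt13* rose, with a log2 fold change of 0.83 (standard error 0.12, edgeR adjusted p = 0.00688). *nfatc1*, a calcineurin-dependent transcription factor known from the endocardium of forming heart valves, was at 56.2, 61.9 and 49.4 CPM in *mtor* xu015/+ and 60.3, 57.3 and 56.7 CPM in Tg(cmlc2:tfeb), against 29.3, 44.6 and 36.8 CPM in WT. Its lowest line library, *mtor* xu015/+ replicate 3, stayed above WT replicate 2. The log2 fold change was 0.63 (standard error 0.13, edgeR adjusted p = 0.0276) and the lines differed by 0.06 (95% interval -0.26 to 0.38).

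*irf1b*, of the interferon regulatory factors, was at 19.4, 10.3 and 10.8 CPM in *mtor* xu015/+ and 13.8, 18.3 and 24.1 CPM in Tg(cmlc2:tfeb), against 5.86, 6.63 and 9.0 CPM in WT. The spread within either line was wide, and the log2 fold change was 1.15 (standard error 0.26, edgeR adjusted p = 0.0424). *hhatlb*, related to hedgehog acyltransferase and chosen after its values were seen, was at 18.7, 13.1 and 13.3 CPM in *mtor* xu015/+ and 12.8, 25.6 and 12.1 CPM in Tg(cmlc2:tfeb), against 7.01, 6.23 and 8.65 CPM in WT (log2 fold change 1.12, edgeR adjusted p = 0.045). *znf998*, a zinc finger gene on chromosome 4, was at 0 counts in all WT libraries and at 0.384, 0.415 and 0.186 CPM in *mtor* xu015/+ and 0.530, 0.604 and 0.361 CPM in Tg(cmlc2:tfeb). Against a floor of 3 counts per library it was at least 4.03-fold higher in *mtor* xu015/+ and at least 6.12-fold higher in Tg(cmlc2:tfeb). Genes of this large zinc finger family on chromosome 4 have near-identical copies, so its counts are uncertain.

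With each library left out in turn, *cds1*, *plxna4*, *si:ch211-261n11.7*, *si:ch211-261n11.8*, *nudt13* and *znf998* stayed called in all 9 fits. The other genes of this set lost the call in at least 1 fit, and the highest adjusted p came each time from a fit without a WT library. Calls held in 6 of the 9 fits for *hhipl1* and *tagapa* and in 5 for *oat*. They held in 3 for *irf1b*, *hhatlb*, *nfatc1* and *C14H4orf47*, and in 2 for *acot14* and *bcl6aa*. Fits without a line library thus lost calls as well. Without WT replicate 1 the edgeR adjusted p was 0.0868 for *hhipl1*, 0.105 for *oat*, 0.121 for *acot14* and 0.152 for *irf1b*. Without WT replicate 2 it was 0.117 for *C14H4orf47* and 0.162 for *hhatlb*, and without WT replicate 3 it was 0.0987 for *tagapa*, 0.101 for *nfatc1* and 0.116 for *bcl6aa*.

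**Figure D2:**
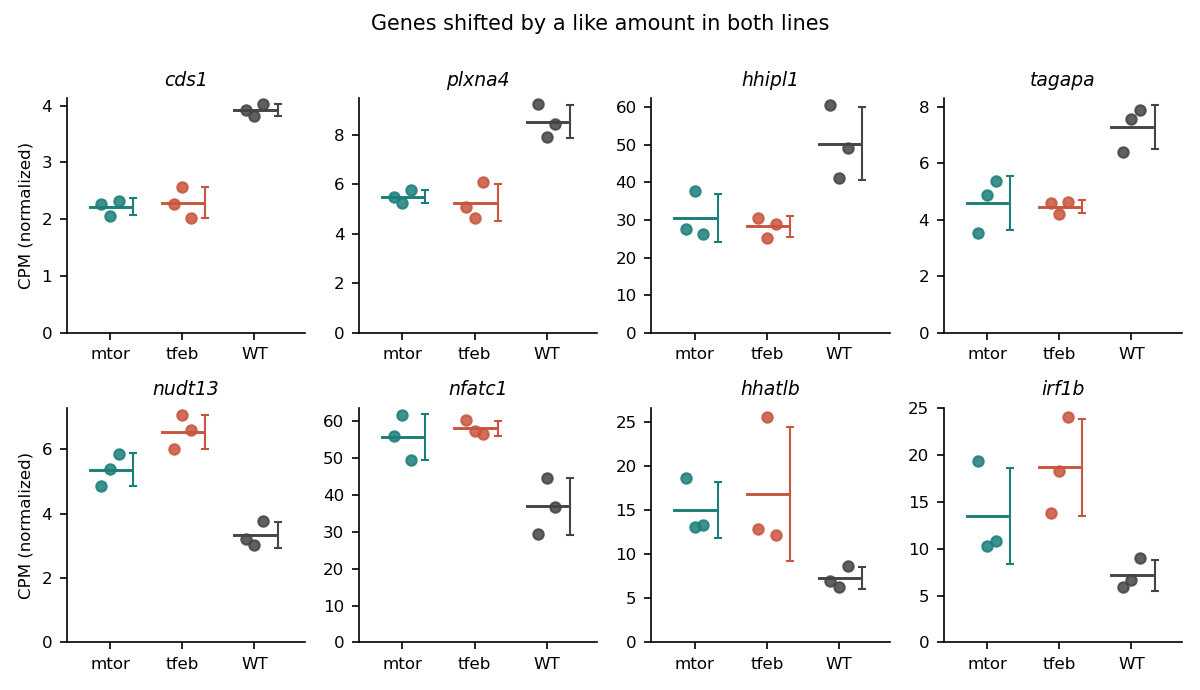
Level of 8 genes in every library, in normalized CPM from 0, with *mtor* xu015/+ (mtor) and Tg(cmlc2:tfeb) (tfeb) left of WT. Points are libraries, horizontal lines are means and bars are SDs (n = 3). In the first 4 genes both lines lie below WT and in the last 4 above it, as for *cds1*, whose line libraries reach 2.57 CPM at most while its WT libraries start at 3.81 CPM.

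Several lipid storage genes were lower in the average of the lines. Of 25 tested genes of lipid droplets and lipodystrophy, 0 were called higher and 4 were called lower (*cidec*, *plin2*, *pparg* and *g0s2*), and 6 had no overlap, all of them lower. By unadjusted p under 0.05, 14 were lower and 1 was higher (10.5% and 8.64% over all genes), and DESeq2 called 7 and limma-voom 4. Over all genes, edgeR called 1.49% lower, and 2.34% were lower without overlap. The median log2 fold change of the list was -0.27, with -0.22 in *mtor* xu015/+ and -0.35 in Tg(cmlc2:tfeb), against -0.02 over all genes. The list was written with earlier results of these data known.

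*cidec*, a lipid droplet protein that promotes the fusion of droplets, lies on chromosome 6 from 21202639 to 21212367. It was at 1.18, 0.990 and 1.96 CPM in *mtor* xu015/+ and 0.615, 0.302 and 0.472 CPM in Tg(cmlc2:tfeb), against 3.56, 2.33 and 2.95 CPM in WT. The 3 genotypes formed 3 separate ranges, lowest in Tg(cmlc2:tfeb) and highest in WT. The log2 fold change of the lines was -1.88 (standard error 0.27, edgeR adjusted p = 0.00728), and the direct difference between Tg(cmlc2:tfeb) and *mtor* xu015/+ was -1.57 (edgeR adjusted p = 0.0107). *pparg*, the nuclear receptor that drives adipocyte differentiation, was at 2.63, 2.03 and 2.72 CPM in *mtor* xu015/+ and 1.57, 1.25 and 0.722 CPM in Tg(cmlc2:tfeb), against 5.50, 3.16 and 3.49 CPM in WT. It had the same 3 ranges, with a log2 fold change of -1.24 (standard error 0.25, edgeR adjusted p = 0.0251) and a direct difference of -1.04 (edgeR adjusted p = 0.0343).

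*plin2*, the perilipin that coats droplets in most tissues, and *g0s2*, an inhibitor of the main triglyceride lipase, were named after their values were seen. *plin2* was at 3.23, 0.944 and 3.72 CPM in *mtor* xu015/+ and 0.445, 0.281 and 0.222 CPM in Tg(cmlc2:tfeb), against 3.74, 4.01 and 3.54 CPM in WT. Replicate 3 of *mtor* xu015/+ lay inside the WT range, replicate 1 just below it, and all Tg(cmlc2:tfeb) libraries far below it. The log2 fold change was -2.03 (edgeR adjusted p = 0.0179). *g0s2* was at 30.7, 30.1 and 48.4 CPM in *mtor* xu015/+ and 7.97, 5.29 and 18.1 CPM in Tg(cmlc2:tfeb), against 104, 47.1 and 62.4 CPM in WT. It missed the rule by a single library, *mtor* xu015/+ replicate 3 over WT replicate 2, and its log2 fold change was -1.87 (edgeR adjusted p = 0.0226). Without WT replicate 1, the edgeR adjusted p was 0.1 for *g0s2*, 0.11 for *pparg* and 0.0409 for *cidec*. Without WT replicate 2 it was 0.068 for *plin2*. With each library left out in turn, the call held in 9 of 9 fits for *cidec*, 6 for *plin2*, 5 for *g0s2* and 3 for *pparg*.

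*ACVR1C*, a type I receptor for activins and related ligands that is known from mammalian fat, was at 1.48, 1.22 and 1.79 CPM in *mtor* xu015/+ and 0.339, 0.345 and 0.556 CPM in Tg(cmlc2:tfeb), against 3.97, 1.99 and 3.08 CPM in WT. It was again lowest in Tg(cmlc2:tfeb) and highest in WT, without overlap (log2 fold change -1.94, standard error 0.25, edgeR adjusted p = 0.00488, chromosome 9 from 5271524 to 5318873). *fabp7a*, a fatty acid binding protein on chromosome 17 from 15433518 to 15435887, was at 2.90, 1.70 and 2.72 CPM in *mtor* xu015/+ and 1.61, 0.669 and 1.58 CPM in Tg(cmlc2:tfeb), against 6.46, 4.92 and 5.14 CPM in WT. The line libraries stayed at or below 2.90 CPM and the WT libraries at or above 4.92 CPM. The log2 fold change was -1.64 (standard error 0.26, edgeR adjusted p = 0.0112), and the direct difference of -0.93 was not called (edgeR adjusted p = 0.0661). Of 5 tested fatty acid binding protein genes, *fabp7a* was the 1 called. *ACVR1C* stayed called with any library left out, and *fabp7a* lost its call only without WT replicate 1 (edgeR adjusted p = 0.0553).

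Members that were not called included *dgat2*, the acyltransferase of the last step of triglyceride synthesis, and *agpat2*, *cavin1b* and *fitm1l*, of the list of lipid droplet and lipodystrophy genes. All were named after their values were seen. *dgat2* was at 4.38, 1.84 and 1.84 CPM in *mtor* xu015/+ and 0.275, 0.194 and 0.945 CPM in Tg(cmlc2:tfeb), against 9.0, 2.19 and 2.38 CPM in WT, with replicate 1 the highest of its group in *mtor* xu015/+ and WT (edgeR adjusted p = 0.0799). *agpat2*, *cavin1b* and *fitm1l* had no overlap but small log2 fold changes of -0.27, -0.30 and -0.33, below the 1.5-fold threshold. Their edgeR adjusted p was 0.0413, 0.146 and 0.149, so *agpat2* missed the fold threshold alone.

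The adipocyte marker list shares *cidec* and *pparg* with the lipid droplet list. Of 7 markers tested, 3 were called lower, these 2 and *adipoqa*, which encodes adiponectin, and 0 were called higher (6 lower and 0 higher at an unadjusted p under 0.05, 4 called by DESeq2 and 3 by limma-voom). Over all genes, 1.49% were called lower. The summed level of the 7 markers was 436 to 570 CPM in *mtor* xu015/+ and 313 to 360 CPM in Tg(cmlc2:tfeb), against 523 to 657 CPM in WT. In this sum the mutant overlapped WT and the transgenic line did not. Most of the sum came from the other markers, since *cidec*, *pparg* and *adipoqa* were each at or below 5.50 CPM in every library. *adipoqa* was at 2.22, 4.51 and 3.72 CPM in *mtor* xu015/+ and 0.996, 0.281 and 0.194 CPM in Tg(cmlc2:tfeb), against 3.92, 3.42 and 4.76 CPM in WT. Its mutant libraries thus overlapped WT, and its edgeR adjusted p was 0.163 without WT replicate 3. It stayed called in 1 of the 9 fits with a library left out. The part of fat cells in the decrease of the lipid genes was not tested.

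**Figure D3:**
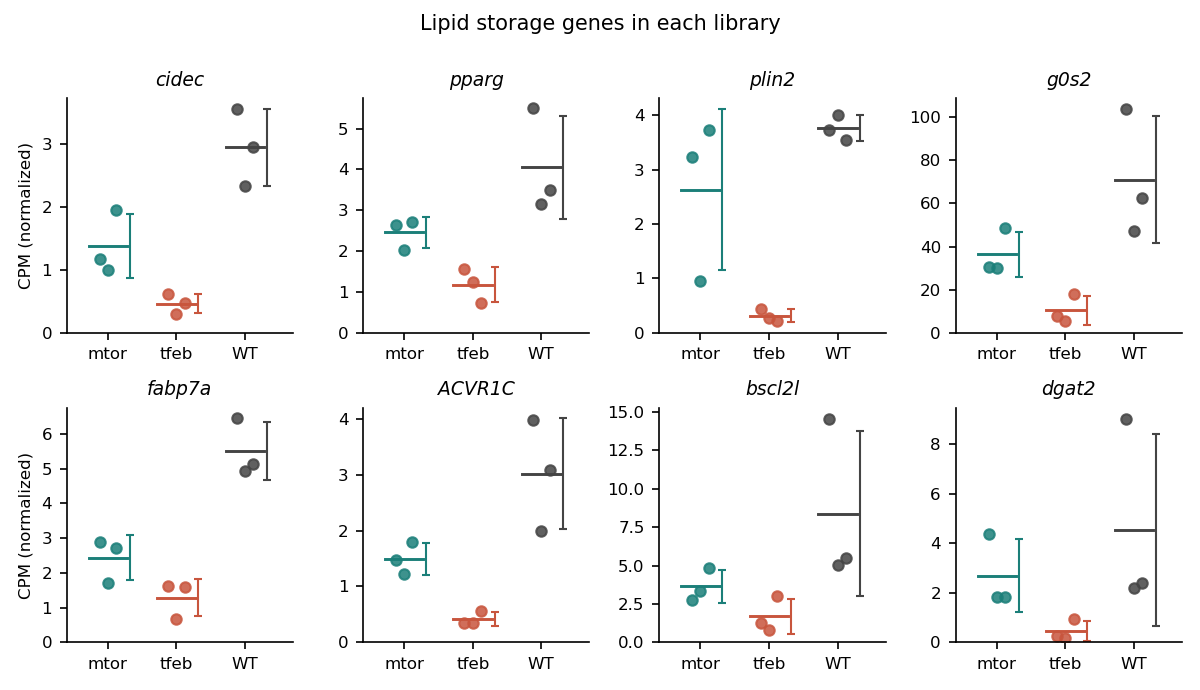
Level of 8 lipid storage and related genes in every library, in normalized CPM from 0, with *mtor* xu015/+ (mtor) and Tg(cmlc2:tfeb) (tfeb) left of WT. Points are libraries, lines are means and bars are SDs (n = 3), cut at 0 where they pass it. *cidec*, *pparg*, *ACVR1C* and *fabp7a* have 3 separate ranges, lowest in Tg(cmlc2:tfeb), and *plin2* is below 1 CPM only in Tg(cmlc2:tfeb) and in *mtor* xu015/+ replicate 2.

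The study itself listed genes as lower in both lines from these same libraries, so the direction of that list is no independent evidence. Its list came from Cuffdiff with each line against WT, not from the average of the lines. By quantitative RT-PCR, the study also reported *bscl2l*, *fabp7a*, *cidec* and *edn1* as lower in both lines. Of its 10 genes matched and tested, 4 were called lower (*fabp7a*, *cidec*, *mpz* and *si:ch211-171h4.3*, which the list gives by its gene ID), and 6 had no overlap, these 4 with *bscl2l* and *ankrd9*. Over all genes, 1.49% were called lower and 2.34% were lower without overlap. *mpz*, the main protein of peripheral myelin, was at 2.11, 2.74 and 5.19 CPM in *mtor* xu015/+ and 3.33, 1.86 and 2.89 CPM in Tg(cmlc2:tfeb), against 11.5, 6.18 and 6.24 CPM in WT. The lines overlapped each other and lay below WT (log2 fold change -1.41, standard error 0.31, edgeR adjusted p = 0.0367), with an adjusted p of 0.152 and a log2 fold change of -1.05 without WT replicate 1. Its call held in 2 of the 9 fits with a library left out. The 7 tested Schwann cell markers summed to 65.1 to 77.2 CPM in *mtor* xu015/+, 72.3 to 74.5 CPM in Tg(cmlc2:tfeb) and 78.3 to 99.6 CPM in WT, and *mpz* was the 1 called. The part of Schwann cells in the level of *mpz* was not tested.

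In the remaining genes the difference from WT shrank, and in *kcnj5* turned round, without a single WT library. *bscl2l*, named for its resemblance to the seipin gene *bscl2*, was at 2.74, 3.36 and 4.82 CPM in *mtor* xu015/+ and 1.29, 0.777 and 3.0 CPM in Tg(cmlc2:tfeb), against 14.6, 5.07 and 5.49 CPM in WT (edgeR adjusted p = 0.0519). Without WT replicate 1 its log2 fold change was -1.10, against -1.77 with all libraries. *ankrd9* was at 2.22, 2.46 and 2.28 CPM in *mtor* xu015/+ and 1.21, 2.85 and 2.67 CPM in Tg(cmlc2:tfeb), against 3.81, 3.19 and 11.0 CPM in WT, and its log2 fold change was -0.62 without WT replicate 3, against -1.40 with all libraries (edgeR adjusted p = 0.0801).

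*grn1*, a progranulin gene, was at 2.19, 1.87 and 2.07 CPM in *mtor* xu015/+ and 1.97, 0.993 and 0.750 CPM in Tg(cmlc2:tfeb), against 1.63, 1.71 and 15.5 CPM in WT. WT replicates 1 and 2 lay inside the range of the lines. Its log2 fold change was -1.97 with all libraries (edgeR adjusted p = 0.128) and -0.07 without WT replicate 3. *kcnj5*, a subunit of G protein-gated potassium channels, was at 2.08, 1.17 and 1.56 CPM in *mtor* xu015/+ and 4.77, 2.504 and 2.0 CPM in Tg(cmlc2:tfeb), against 1.66, 1.59 and 14.7 CPM in WT. Its log2 fold change of -1.42 turned to 0.45 without WT replicate 3 (edgeR adjusted p = 0.592). *edn1*, which encodes the vasoconstrictor endothelin, had a log2 fold change of -1.01 (edgeR adjusted p = 0.128), or -0.50 without WT replicate 1. *smtnl1*, a smoothelin-like gene, had -1.30 (edgeR adjusted p = 0.218), or -0.63 without WT replicate 1.

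**Figure D4:**
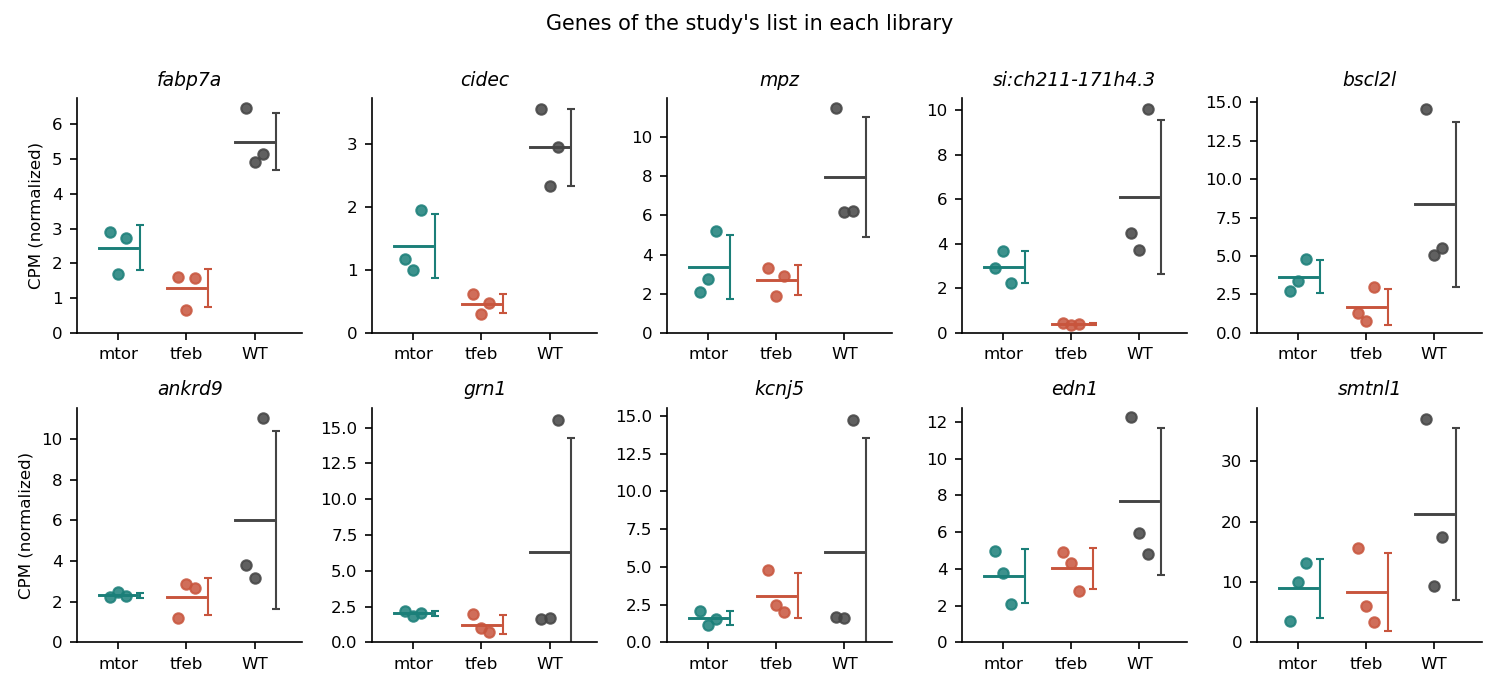
Level of 10 genes of the study's list in every library, in normalized CPM from 0, with *mtor* xu015/+ (mtor) and Tg(cmlc2:tfeb) (tfeb) left of WT. Points are libraries in order of replicate number, lines are means and bars are SDs (n = 3), cut at 0 where they pass it. In *fabp7a* and *cidec* the lines lie below all 3 WT libraries by a step, whereas in *grn1* and *kcnj5* WT replicate 3 alone is high, at 15.5 and 14.7 CPM.

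Another set of lower genes had no overlap with WT in either line but was further from WT in Tg(cmlc2:tfeb). *mpp6b*, a membrane scaffold of the MAGUK family, and *hspa13*, of the Hsp70 family, were chosen after their values were seen. *mpp6b* was at 12.3, 13.2 and 12.01 CPM in *mtor* xu015/+ and 3.58, 2.76 and 4.06 CPM in Tg(cmlc2:tfeb), against 17.1, 17.1 and 17.0 CPM in WT. Libraries within a genotype were close, and the log2 fold change was -1.38 (standard error 0.10, edgeR adjusted p = 1.7e-04), with -0.45 in *mtor* xu015/+ and -2.30 in Tg(cmlc2:tfeb).

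*hspa13* was at 7.34, 6.61 and 5.87 CPM in *mtor* xu015/+ and 4.22, 3.76 and 3.92 CPM in Tg(cmlc2:tfeb), against 8.82, 8.99 and 10.3 CPM in WT, and its log2 fold change was -0.87 (edgeR adjusted p = 0.00247). It lies on chromosome 15 from 29549115 to 29556757, beside *BX324227.2* and *BX324227.3*, which were also lower in both lines. These last genes held the same value in every library, so their counts cannot be told apart. *cxcl12b*, a chemokine ligand of Cxcr4, was at 33.9, 32.7 and 30.5 CPM in *mtor* xu015/+ and 12.9, 17.7 and 14.9 CPM in Tg(cmlc2:tfeb), against 59.2, 36.4 and 40.5 CPM in WT (log2 fold change -1.04, edgeR adjusted p = 0.00787). *vipr1b*, a receptor of vasoactive intestinal peptide, *tecta*, which encodes alpha-tectorin, and *olah*, a thioesterase of fatty acid synthesis, had log2 fold changes of -1.23, -0.87 and -1.22. By line these were -0.46, -0.23 and -0.24 in *mtor* xu015/+ and -2.01, -1.52 and -2.19 in Tg(cmlc2:tfeb). In the mutant alone the edgeR unadjusted p was 0.145 for *tecta* and 0.264 for *olah*. *cxcl12b*, *vipr1b*, *tecta* and *olah* were also chosen after their values were seen.

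By the naming rule, *ngef*, a guanine nucleotide exchange factor, was at 17.4, 12.5 and 12.3 CPM in *mtor* xu015/+ and 10.3, 8.55 and 8.39 CPM in Tg(cmlc2:tfeb), against 21.0, 19.6 and 22.9 CPM in WT (log2 fold change -0.90, edgeR adjusted p = 0.00647). *runx1*, a transcription factor of blood cell formation, was at 0.986, 1.36 and 1.93 CPM in *mtor* xu015/+ and 0.721, 0.626 and 0.583 CPM in Tg(cmlc2:tfeb), against 2.23, 2.08 and 3.05 CPM in WT. Replicate 3 of the mutant came close to WT replicate 2, and the log2 fold change was -1.35 (edgeR adjusted p = 0.0138). The neuronal genes *gabrb2a*, a subunit of GABA-A receptors, and *pclob*, a presynaptic scaffold, had log2 fold changes of -1.18 and -1.54. *pfkfb3*, the enzyme that makes an activator of phosphofructokinase, had -0.59 (edgeR adjusted p = 0.032), of which -0.16 in *mtor* xu015/+ and -1.02 in Tg(cmlc2:tfeb).

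The clone-named *si:ch73-7i4.1* on chromosome 9 was at 2.60, 2.42 and 1.93 CPM in *mtor* xu015/+ and at 0 counts in all Tg(cmlc2:tfeb) libraries, against 2.65, 3.90 and 4.51 CPM in WT. Against a floor of 3 counts per library it was at least 52.3-fold lower in Tg(cmlc2:tfeb) than in WT, while its highest mutant library lay just under the lowest WT library. *si:ch211-171h4.3*, on chromosome 19, was at 2.93, 3.68 and 2.23 CPM in *mtor* xu015/+ and 0.445, 0.345 and 0.389 CPM in Tg(cmlc2:tfeb), against 4.49, 3.73 and 10.1 CPM in WT. The mutant was separated from WT by 0.02 log2 units.

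Among the higher genes, *ntn1b* was the 1 that was further from WT in the mutant. It encodes a netrin, a secreted guidance protein. It was at 11.5, 12.1 and 14.5 CPM in *mtor* xu015/+ and 8.54, 8.03 and 5.75 CPM in Tg(cmlc2:tfeb), against 3.63, 4.44 and 5.19 CPM in WT. The 3 genotypes had separate ranges, and the direct difference of Tg(cmlc2:tfeb) from *mtor* xu015/+ was -0.77 (95% interval -1.16 to -0.38, edgeR adjusted p = 0.0115). *slit1b*, of another family of secreted guidance proteins and chosen after its values were seen, was at 1.42, 0.645 and 1.96 CPM in *mtor* xu015/+ and 2.27, 1.60 and 2.06 CPM in Tg(cmlc2:tfeb), against 0.623, 0.541 and 0.216 CPM in WT. Its lowest mutant library was just above WT (log2 fold change 1.81, edgeR adjusted p = 0.045).

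*vwf*, the von Willebrand factor of endothelium and thrombocytes, was called higher. It was at 298, 269 and 386 CPM in *mtor* xu015/+ and 460, 441 and 396 CPM in Tg(cmlc2:tfeb), against 237.9, 259 and 235 CPM in WT. Replicate 2 of the mutant lay just above WT, and the log2 fold change was 0.60 (standard error 0.11, edgeR adjusted p = 0.0211). It was the 1 gene called of 22 tested endothelial markers (1.06% were called higher over all genes). At an unadjusted p under 0.05, edgeR had 2 of the 22 higher and 3 lower. *lyve1b*, named after its values were seen, was lower without overlap (2.34% over all genes). Its log2 fold change was -0.95 (edgeR adjusted p = 0.244), at or below 0.484 CPM in every library. The median log2 fold change of the 22 markers was 0.05. They summed to 1460 to 1630 CPM in *mtor* xu015/+, 1640 to 1730 CPM in Tg(cmlc2:tfeb) and 1380 to 1520 CPM in WT. *dusp10*, a phosphatase of MAP kinases, was at 3.62, 3.48 and 2.42 CPM in *mtor* xu015/+ and 6.32, 8.05 and 5.25 CPM in Tg(cmlc2:tfeb), against 2.21, 1.65 and 1.78 CPM in WT (log2 fold change 1.27, edgeR adjusted p = 0.0102).

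Of the genes lower or higher by unlike amounts, *mpp6b*, *hspa13*, *cxcl12b*, *vipr1b*, *tecta*, *olah*, *ngef*, *si:ch73-7i4.1*, *si:ch211-171h4.3* and *ntn1b* stayed called with any library left out. The others had their highest edgeR adjusted p without a WT library. It was 0.0624 for *pclob*, 0.131 for *pfkfb3* and 0.0516 for *dusp10* without WT replicate 2, and 0.0679 for *runx1*, 0.0537 for *gabrb2a*, 0.135 for *slit1b* and 0.0888 for *vwf* without WT replicate 3. Their calls held in 8 of the 9 fits for *runx1*, 7 for *gabrb2a* and *dusp10*, and 6 for *pclob*. For *vwf* they held in 4, for *pfkfb3* in 2 and for *slit1b* in 1.

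Genes of the cell cycle were called in number, and most of those called had overlapping libraries. Of 46 tested, 17 were called higher and 0 lower by edgeR (0 lower at an unadjusted p under 0.05, 22 called by DESeq2 and 8 by limma-voom), and 2 had no overlap. Over all genes, 1.06% were called higher and 1.82% were higher without overlap. The median log2 fold change was 2.08 in Tg(cmlc2:tfeb) and -0.14 in *mtor* xu015/+, and 40 of the 46 were called higher in the direct comparison of Tg(cmlc2:tfeb) with *mtor* xu015/+. The average of the lines was therefore set by the transgenic line in this list. *gins4*, of the GINS complex of the replication fork, was at 0.520, 0.576 and 0.675 CPM in *mtor* xu015/+ and 2.86, 2.91 and 2.31 CPM in Tg(cmlc2:tfeb), against 0.467, 0.455 and 0.378 CPM in WT. *rrm1*, the large subunit of ribonucleotide reductase, was at 8.49, 9.14 and 8.38 CPM in *mtor* xu015/+ and 23.9, 28.4 and 17.9 CPM in Tg(cmlc2:tfeb), against 7.60, 7.43 and 8.24 CPM in WT. In both, the mutant libraries stood just above WT and far below Tg(cmlc2:tfeb), with direct differences of 2.18 and 1.43 on the log2 scale.

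Outside that list, *aspm*, of the spindle pole, was at 0.466, 0.530 and 0.605 CPM in *mtor* xu015/+ and 3.48, 9.02 and 3.39 CPM in Tg(cmlc2:tfeb), against 0.182, 0.199 and 0.324 CPM in WT, and its log2 fold change was 2.83 (edgeR adjusted p = 0.0113). *ube2c*, the ubiquitin-conjugating enzyme of the anaphase-promoting complex, *mastl*, a mitotic kinase, and *rad54b*, of recombination repair, had log2 fold changes of 1.63, 1.86 and 2.46. Each of them was called higher in Tg(cmlc2:tfeb) than in *mtor* xu015/+. *cdca7a* had 2, 3 and 3 counts in WT, and its ratio to WT was 2.25 in *mtor* xu015/+ (95% counting interval 0.95 to 5.91) and 19.9 in Tg(cmlc2:tfeb) (9.87 to 46.7). *gabra6b*, a GABA-A receptor subunit, and *dpysl4*, of the collapsin response mediator family, had log2 fold changes of 1.38 and 2.26.

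Clone-named genes were also among those higher. *BX649500.1* had a log2 fold change of 1.92 (edgeR adjusted p = 0.0112). *CR626907.2* had a single count in the 3 WT libraries together, and its ratio to WT was 12.6 in *mtor* xu015/+ (95% counting interval 1.92 to 533) and 36.7 in Tg(cmlc2:tfeb) (6.25 to 1480). *CABZ01112049.1* had 7 counts in the 3 WT libraries, with ratios of 5.92 (2.65 to 15.5) in *mtor* xu015/+ and 12 (5.59 to 30.5) in Tg(cmlc2:tfeb). These intervals, and those of *cdca7a*, treat the rounded estimated counts as numbers of reads, although they are scaled from transcript abundances. They cover no more than counting error and only approximate it. *gins4* and *cdca7a* stayed called with any library left out. Without WT replicate 1 the edgeR adjusted p was 0.0602 for *aspm* and 0.127 for *CABZ01112049.1*. Without WT replicate 2 it was 0.0506 for *rrm1* and 0.0733 for *rad54b*. Without WT replicate 3 it was 0.109 for *ube2c*, 0.0938 for *mastl*, 0.0739 for *gabra6b*, 0.0932 for *dpysl4*, 0.056 for *BX649500.1* and 0.108 for *CR626907.2*. Calls held in 8 of the 9 fits for *rrm1*, 7 for *aspm* and *BX649500.1*, and 6 for *rad54b* and *dpysl4*. They held in 4 for *ube2c*, *CABZ01112049.1* and *CR626907.2*, 2 for *mastl* and 1 for *gabra6b*.

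Over all genes, 2.55% were called between the lines and WT, and the lists that stand closest to the manipulated genes are read against that share. Of 48 tested lysosomal genes, 0 were called by edgeR (6 at an unadjusted p under 0.05, and 0 by DESeq2 or limma-voom), and 1 was without overlap on the higher side and 1 on the lower. Their median log2 fold change was -0.04, with 0.04 in *mtor* xu015/+ and -0.10 in Tg(cmlc2:tfeb). They summed to 1860 to 1980 CPM in *mtor* xu015/+ and 1590 to 1670 CPM in Tg(cmlc2:tfeb), against 1720 to 1790 CPM in WT. The sums of the lines thus lay on opposite sides of WT. Directly compared, 0 were called higher and 5 lower in Tg(cmlc2:tfeb) than in *mtor* xu015/+. Of 52 autophagy genes other than *tfeb*, 0 were called by edgeR (11 at an unadjusted p under 0.05, 1 by DESeq2 and 0 by limma-voom), while 5 were called in the direct comparison of the lines. The 3 without overlap on the higher side were *rb1cc1*, *pik3r4* and *atg4db*, and the 1 on the lower side was *nbr1a*. Their log2 fold changes were 0.10, 0.15, 0.41 and -0.11.

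Of 21 subunits of the v-ATPase, the pump that acidifies lysosomes, 20 had a negative log2 fold change, with a median of -0.09, and 0 were called by edgeR (3 lower at an unadjusted p under 0.05, and 0 by DESeq2 or limma-voom). *atp6v1b2* and *atp6v0cb* had no overlap, at -0.48 and -0.33. Of 38 genes of mTOR signalling, 0 were called by edgeR (7 lower at an unadjusted p under 0.05, 1 by DESeq2 and 0 by limma-voom). Directly compared, 1 was called higher and 7 lower in Tg(cmlc2:tfeb) than in *mtor* xu015/+. *deptor*, an inhibitor bound to mTOR, had no overlap, at 7.86, 8.75 and 9.75 CPM in *mtor* xu015/+ and 6.97, 9.26 and 10.7 CPM in Tg(cmlc2:tfeb), against 14.1, 13.3 and 11.2 CPM in WT. Its log2 fold change was -0.54 (edgeR adjusted p = 0.0586). *bag3*, a co-chaperone of selective autophagy, was at 53.8, 66.4 and 61.6 CPM in *mtor* xu015/+ and 30.1, 35.5 and 44.7 CPM in Tg(cmlc2:tfeb), against 58.6, 61.3 and 94.5 CPM in WT, so that the mutant overlapped WT (edgeR adjusted p = 0.0845).

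Of 18 clock repressor genes, 0 were called by edgeR (4 at an unadjusted p under 0.05, and 0 by DESeq2 or limma-voom), but *cry3a* and *cry3b* had no overlap. *cry3a* was at 228, 231 and 255 CPM in *mtor* xu015/+ and 297, 293 and 255 CPM in Tg(cmlc2:tfeb), against 197, 207 and 214 CPM in WT, a log2 fold change of 0.33 (edgeR adjusted p = 0.0418) that was below the 1.5-fold threshold. *cry3b* had a log2 fold change of 0.35 (edgeR adjusted p = 0.0544). Of 30 interferon and MHC genes, 2 were called higher and 3 lower, and 3 had no overlap, all of them higher (*irf1b*, *tap1* and *ifit9*). Over all genes, 1.06% were called higher and 1.49% lower, and 1.82% were higher without overlap. At an unadjusted p under 0.05, edgeR had 5 of the 30 higher and 9 lower (8.64% and 10.5% over all genes). The median log2 fold change of the list was -0.06. Directly compared, 1 was called higher and 8 lower in Tg(cmlc2:tfeb) than in *mtor* xu015/+. *tap1*, of the peptide transporter for antigen presentation, was at 10.3, 10.3 and 8.61 CPM in *mtor* xu015/+ and 11.4, 11.5 and 16.5 CPM in Tg(cmlc2:tfeb), against 6.95, 8.42 and 8.06 CPM in WT (edgeR adjusted p = 0.0668). *ifit9* stayed under 0.454 CPM in every library.

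Of 37 genes of fatty acid oxidation, 0 were called by edgeR (6 at an unadjusted p under 0.05, and 0 by DESeq2 or limma-voom), with a median log2 fold change of -0.04. Of 39 collagen and matrix genes, 0 were called by edgeR (8 at an unadjusted p under 0.05, 1 by DESeq2 and 0 by limma-voom), while 12 were called higher in Tg(cmlc2:tfeb) than in *mtor* xu015/+. Of 36 sarcomere genes, 0 were called higher and 1 was called lower by edgeR (3 higher and 9 lower at an unadjusted p under 0.05, 2 called by DESeq2 and 1 by limma-voom). The sarcomere genes summed to 156000 to 169000 CPM in *mtor* xu015/+ and 115000 to 127000 CPM in Tg(cmlc2:tfeb), against 157000 to 167000 CPM in WT. Directly compared, 6 were called lower and 1 higher in Tg(cmlc2:tfeb) than in *mtor* xu015/+. Of 12 erythrocyte markers, 0 were called between the lines and WT by edgeR (3 lower at an unadjusted p under 0.05, and 0 by DESeq2 or limma-voom). They summed to 2290 to 2950 CPM in *mtor* xu015/+ and 4780 to 6210 CPM in Tg(cmlc2:tfeb), against 3670 to 4160 CPM in WT, and 9 were called higher in Tg(cmlc2:tfeb) than in *mtor* xu015/+.

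**Figure D5:**
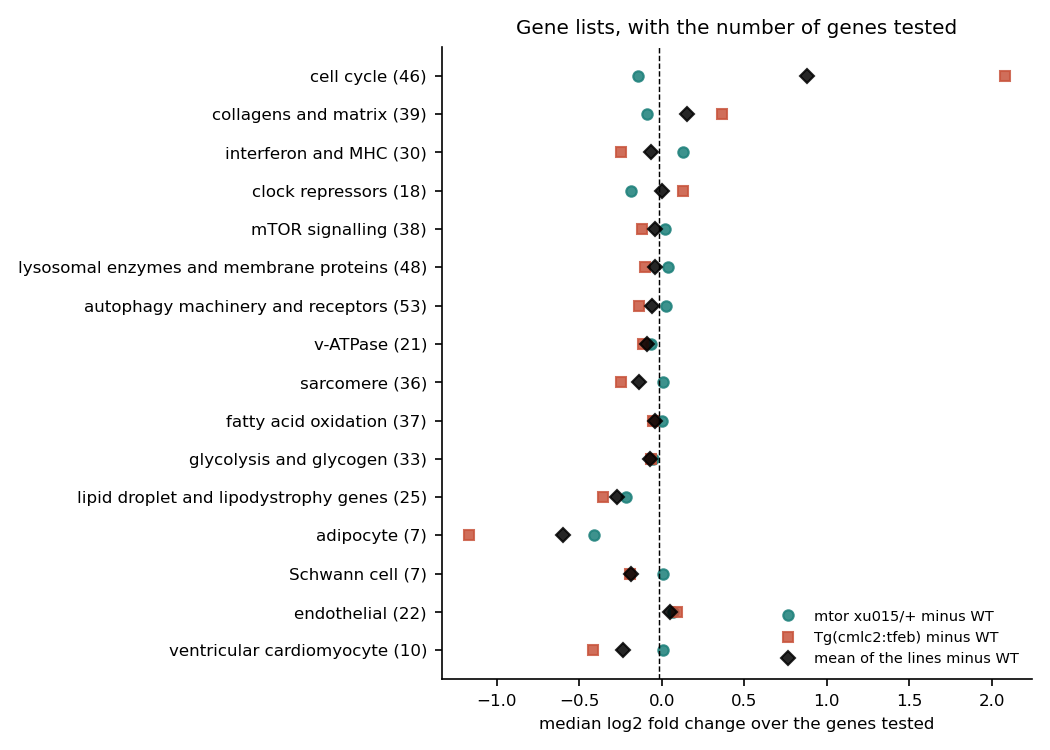
Median log2 fold change against WT of 16 gene lists, with the number of genes tested in brackets, for *mtor* xu015/+ (circles), Tg(cmlc2:tfeb) (squares) and the average of both (diamonds). The dashed line is the median of all named and placed genes, -0.02. The lipid droplet list lies left of it in both lines (-0.22 and -0.35), and the cell cycle list lies far right in Tg(cmlc2:tfeb) alone (2.08). The average of the lysosomal list lies close to it (-0.04), with *mtor* xu015/+ to the right (0.04) and Tg(cmlc2:tfeb) to the left (-0.10).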

How the data were processed

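The members and the gene lists were chosen with earlier results of these data known. The authors deposited 1 table of estimated counts for 30628 genes in 9 libraries (column names end in scaledTPM), which are not whole numbers and are not normalized between libraries. The tool that made this table is not given in the sources used here. The submitters' notes name bcl2fastq, Trimmomatic and STAR, the methods name TopHat and Cufflinks, and the build is GRCz11. No column was left unmapped. Nothing says that the libraries of a genotype came from separate clutches, so p-values measure the spread between these pools.

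The expected counts deposited by the authors were rounded and filtered with filterByExpr (21216 genes kept), normalized with TMM and fitted over all 9 libraries in edgeR (version 4.0.16, R version 4.3.3) by its quasi-likelihood test. The contrast was the mean of both lines minus WT, and p-values were adjusted by Benjamini-Hochberg over 21216 genes. Counts of genes cover the 18884 with a name and a chromosome entry, scaffolds included. Overlap was judged on log2 CPM, to which a prior count of 0.5 was added. The alternatives used DESeq2 (version 1.42.0), limma-voom (version 3.58.1), other scalings and filters, and each library left out.

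Genes were named by rule, apart from those chosen after their values were seen. Beyond those so marked above, these were *deptor*, *cry3a*, *cry3b*, *tap1*, *ifit9*, *adipoqa*, *BX324227.2* and *BX324227.3*. *rb1cc1*, *pik3r4*, *atg4db*, *nbr1a*, *atp6v1b2* and *atp6v0cb* were named because they had no overlap. From the genes called, without overlap and shifted 1.5-fold in each line, the 12 higher and 12 lower with the smallest p were taken, leaving out clone names, of which up to 3 in each direction were added. To these came up to 4 genes of each list that were called and without overlap, whatever their fold in each line. The study's list, *mtor*, *tfeb* and *bag3* were also taken. Entries of the study's list that could not be matched by name or gene ID, among them 1 of several gene copies, are not analysed here. The fits were tested on simulated data.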

Additional observations from a re-analysis of the deposited data

Results flagged for a closer look

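The lines were compared directly, Tg(cmlc2:tfeb) minus *mtor* xu015/+, with edgeR in the same fit, and the named genes whose difference was called are given here on the log2 scale. Among the lipid storage and adipocyte genes these were *plin2* (-3.02), *adipoqa* (-2.79), *dgat2* (-2.56), *ACVR1C* (-1.87), *g0s2* (-1.81), *cidec* (-1.57) and *pparg* (-1.04). All 7 of these named genes were lower in Tg(cmlc2:tfeb). *plin2*, *adipoqa*, *dgat2* and *g0s2*, named after their values were seen, had line libraries that overlapped WT. *ACVR1C* was in neither the lipid droplet nor the adipocyte list. Of 25 tested genes of the lipid droplet list, 5 were called lower and 1 higher in this contrast. Of 7 adipocyte markers, 4 were called lower and 0 higher, and of 5 fatty acid binding protein genes, 0 lower and 1 higher. Over all genes, 7.48% were called lower and 7.69% higher.

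The other lower genes were *si:ch211-171h4.3* (-2.90), *BX324227.2* (-2.48), *BX324227.3* (-2.48), *olah* (-1.95), *mpp6b* (-1.85), *vipr1b* (-1.56), *tecta* (-1.29), *pclob* (-1.16), *runx1* (-1.15), *gabrb2a* (-1.12), *cxcl12b* (-1.09), *pfkfb3* (-0.85), *hspa13* (-0.73), *bag3* (-0.72) and *ngef* (-0.62). *si:ch73-7i4.1* was at 0 counts in Tg(cmlc2:tfeb) and at least 32.8-fold lower there than in *mtor* xu015/+, against a floor of 3 counts per library. *mtor* differed by -1.73, and its *mtor* xu015/+ libraries overlapped WT.

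The genes higher in Tg(cmlc2:tfeb) were *tfeb* (3.40), *aspm* (3.303), *cdca7a* (3.10), *mastl* (2.24), *gins4* (2.18), *ube2c* (2.095), *dpysl4* (2.06), *rad54b* (1.93), *gabra6b* (1.48), *rrm1* (1.43), *BX649500.1* (1.33) and *dusp10* (1.05). *ntn1b* was higher than WT in both lines and differed by -0.77, higher in *mtor* xu015/+. Groups of 3 libraries are too small for a test of outlying libraries.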

How the results depend on the processing

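Of 482 genes called between the lines and WT, 109 of them without overlap, DESeq2 called 792. A 2-fold threshold gave 288 called genes, 56 of them without overlap, and no fold threshold gave 190 called without overlap. With both lines as a single group of 6, edgeR called 0 genes, so 0 were called without overlap. A gap of at least 0.2 log2 units left 104 of 785 genes without overlap. The direct comparison of the lines gave 2864 genes, or 4541 with no fold threshold and 1671 at 2-fold. With a library left out, 193 to 495 genes were called, 60 to 155 of them without overlap, 877 to 1828 genes had no overlap, and 2241 to 2827 differed between the lines. The number called was 194, 205 and 193 without WT replicate 1, 2 and 3, 294 without *mtor* xu015/+ replicate 1 and 311 without Tg(cmlc2:tfeb) replicate 2. Called genes without overlap were 60 without WT replicate 3 and 70 without Tg(cmlc2:tfeb) replicate 2. Fewer libraries make the no-overlap rule easier to meet. Of the 109 genes, 31 remained in all 9 of these fits. Normalization by RLE, limma-voom, total count alone (chosen for the calls after seeing the data) and the other filters on low counts kept these counts within 1.5 times, but limma-voom called 106 genes higher and 287 lower, against 200 and 282 with edgeR. Named genes had 1022 alternative values, including those of genes not called in the main fit, which had no call to lose. A call was lost in 174 and gained in 10. The direction changed in 2, *mtor* (log2 fold change 0.086 without WT replicate 1, in a range of -0.62 to 0.086 over the left-out libraries) and *kcnj5* (0.45 without WT replicate 3, in a range of -1.87 to 0.45).

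The replicate numbers are shared by the groups. Same-numbered libraries had correlations of -0.03 to 0.08 between their deviations from the group means, and libraries of different number -0.11 to 0.06. Whether same-numbered libraries share more than the number cannot be told from these values. With the replicate block 349 genes were called, 70 of them without overlap, and 2687 differed between the lines. Some libraries correlated best with another number. The causes of these shifts were not tested.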

Other observations

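Several genes were slightly higher in both lines without reaching 1.5-fold. *hsp90ab1*, a cytosolic chaperone, was at 1924, 1869 and 1951 CPM in *mtor* xu015/+ and 2360, 2105 and 2000.4 CPM in Tg(cmlc2:tfeb), against 1711, 1653 and 1659 CPM in WT (log2 fold change 0.28, edgeR adjusted p = 0.0494). *eno3*, the muscle enolase, had a log2 fold change of 0.29 (edgeR adjusted p = 0.0395) and *nqo1*, a target of the antioxidant factor Nrf2, 0.46 (edgeR adjusted p = 0.0469), both without overlap. *pfkma*, a muscle phosphofructokinase, lay on the lower side at 3.51, 4.61 and 3.77 CPM in *mtor* xu015/+ and 1.99, 2.01 and 4.06 CPM in Tg(cmlc2:tfeb), against 7.06, 4.90 and 6.49 CPM in WT. It missed the call by its adjusted p (edgeR adjusted p = 0.0575). Of 42 tested cytosolic chaperones, 0 were called higher and 3 lower (1.06% and 1.49% over all genes), and 1 on each side had no overlap. Without overlap were 2 higher and 2 lower of 33 glycolysis and glycogen genes. Of 31 Nrf2 and antioxidant genes they were 1 higher and 2 lower (1.82% and 2.34% over all genes).

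Other genes were called in the average although *mtor* xu015/+ overlapped WT. *acta2*, the smooth muscle actin, was at 93.7, 95.1 and 90.9 CPM in *mtor* xu015/+ and 10.9, 10.3 and 12.1 CPM in Tg(cmlc2:tfeb), against 71.5, 84.6 and 101 CPM in WT. *hcn4*, the pacemaker channel, was at 16.3, 22.5 and 14.8 CPM in *mtor* xu015/+ and 2.29, 2.42 and 3.44 CPM in Tg(cmlc2:tfeb), against 17.7, 17.5 and 13.4 CPM in WT. *psmb8a*, of the immunoproteasome, had a log2 fold change against WT of 0.71 in *mtor* xu015/+ and -3.43 in Tg(cmlc2:tfeb), and *mhc1uba*, a class I MHC gene, of -0.10 and 3.28. The genes of this and the preceding paragraph were chosen after their values were seen.

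Among the 2332 tested genes without a name or a chromosome entry, 104 were higher and 29 lower without overlap.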
